A study of Mus musculus with 8 samples.

Results

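The desmosomal cadherins and plaque proteins described here are 10 genes: the desmogleins Dsg2 and Dsg3, the desmocollins Dsc1, Dsc2 and Dsc3, the plakophilins Pkp1, Pkp2 and Pkp3, plakoglobin (Jup) and desmoplakin (Dsp). They were taken by symbol from a count table of 55536 genes, and all 10 were found there. RNA was measured in MIN6, a mouse insulinoma line widely used as a model of the pancreatic β-cell, given as WT in genotype. Control cells had received pcDNA 3 without insert and the other cells pGloMyc-Klf4, a plasmid for the zinc-finger transcription factor Klf4, both with Lipofectamine 3000 for 48 h. Each group held 4 biological replicates, with replicates 1 and 2 of both groups in batch 1 and replicates 3 and 4 in batch 2. The plasmids differ by name in backbone as well as in Klf4, so the effects of backbone and Klf4 cannot be told apart. The extraction text speaks of islets, although every library is named as MIN6, and nothing else says how separate the cultures were, so the p-values measure the spread between these libraries.

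Desmosomes are spot-like junctions that rivet epithelial and heart muscle cells together. Desmogleins and desmocollins are transmembrane cadherins that bind their counterparts on the neighbouring cell, while plakoglobin and the plakophilins bind the cadherin tails inside the cell and desmoplakin ties this plaque to intermediate filaments, which in epithelia are keratins. Dsg2, Dsc2 and Pkp2 are the isoforms of simple epithelia and heart, whereas Dsg1, Dsg3, Dsc1, Dsc3, Pkp1 and, more broadly, Pkp3 are known from stratified epithelia such as epidermis, a tissue in which Klf4 is expressed.

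The 8 libraries held 45417853 to 52731176 counts. Klf4 itself averaged 40.1 ± 3.11 CPM (the usual library-size-normalised count, here after TMM scaling; ± gives the SD over 4 libraries throughout) in control and 5040 ± 567 CPM in Klf4 libraries. Of 18266 genes that passed a filter on low counts, 21.1% were higher and 15.5% lower (36.6% in all) in Klf4 libraries at an adjusted p under 0.05 (edgeR's quasi-likelihood test with a batch term, Benjamini-Hochberg adjustment), and the median log2 fold change was -0.0142. The β-cell label was checked on 8 β-cell markers, which had a summed level of 24494 to 31292 CPM in control and 22907 to 31579 CPM in Klf4 libraries, with 4 of them lower and 0 higher.

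All 9 desmosomal genes that passed the filter were higher in Klf4 libraries, beside 21.1% of all tested genes. The 4 genes Dsg3, Dsc3, Pkp1 and Pkp3 passed the filter only through the Klf4 libraries and so had to differ. The other 5, Dsg2, Dsc2, Pkp2, Jup and Dsp, would have passed on the control libraries alone, and 5 of these 5 were higher, where 18.1% of the 16203 genes of that kind were. Dsc1 did not pass the filter. In 7 of the 10 genes the 4 Klf4 libraries all lay above the 4 control libraries, a pattern found in 17.2% of tested genes. The exceptions were Dsg2, Dsc1 and Pkp2. Of the tested genes 6 rose by at least 1 on the log2 scale, as 8.5% of all tested genes did, and these were Dsg3, Dsc2, Dsc3, Pkp1, Pkp3 and Dsp. Both counts include Dsg3, Dsc3, Pkp1 and Pkp3, which had to differ. Of the 5 genes that would have passed on the control libraries alone, Dsc2 and Dsp rose by at least 1. Of the same 5, Dsc2, Jup and Dsp had groups that did not overlap. The shares of 17.2% and 8.5% were not restricted to genes of that kind. In bulk RNA more cells of a type and more RNA per cell cannot be told apart, nor can a change in every cell from one in the transfected cells.

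**Figure D1:**
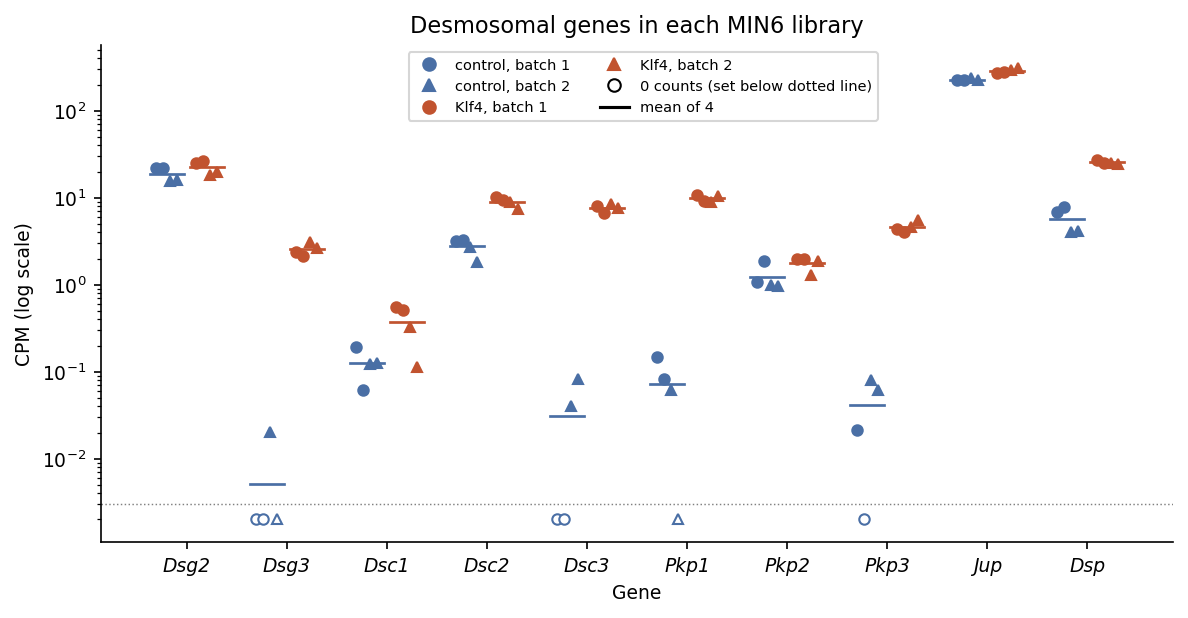
CPM (log axis) of the 10 desmosomal genes in each of the 4 control (blue) and 4 Klf4 (orange) libraries, with circles for batch 1, triangles for batch 2, lines for group means and open symbols below the dotted line for 0 counts. Dsg3, Dsc3, Pkp1 and Pkp3 lie near or at 0 counts in controls and above 2 CPM in Klf4 libraries, whereas Dsg2, Pkp2 and Jup lie close together in both groups.

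Among the cadherins, Dsg2 (ENSMUSG00000044393; GRCm38 chromosome 18, 20558074 to 20604521, plus strand), the desmoglein of all desmosome-bearing tissues, was the main one in control cells. It gave 22.2, 21.9, 15.7 and 15.99 CPM in control replicates 1 to 4 and 24.8, 26.8, 18.3 and 19.6 CPM in Klf4 replicates 1 to 4. The libraries of batch 2 were lower than those of batch 1 in both groups, so the groups overlapped as a whole, but within each batch both Klf4 libraries lay above both control libraries. Dsg2 rose by a log2 fold change of 0.24 (SE 0.05, adjusted p = 0.000529), with 0.22 in batch 1 and 0.27 in batch 2. Without the batch term the value was 0.24 again and the call was lost (adjusted p = 0.288). The last exons overlap the antisense gene Gm16090 by 330 bases, which had at most 16 counts in any library.

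Dsg3 (ENSMUSG00000056632; chromosome 18, 20510274 to 20547459, plus strand), known as an autoantigen of pemphigus vulgaris, went from near absence to a low level. Control libraries 1 to 4 held 0, 0, 1 and 0 counts, and Klf4 libraries 124, 96, 162 and 138 counts, or 2.40, 2.12, 3.08 and 2.62 CPM. Every Klf4 library was far above the single control count. The ratio of summed CPM was 497 (exact 95% interval for counting error only, 88.8 to 19668), and the fitted log2 fold change was 8.38 (SE 0.41, adjusted p = 1.34e-13). That fit rests on 1 control count: leaving out control replicate 3 gave 9.92, and leaving out the other libraries gave values down to 8.02. Its SE was derived from the test statistic and does not show the width of the counting interval.

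The desmocollins spanned a wide range. Dsc2 (ENSMUSG00000024331; chromosome 18, 20030633 to 20059554, minus strand), the broadly expressed desmocollin, gave 3.21, 3.29, 2.70 and 1.82 CPM in control and 10.3, 9.54, 8.84 and 7.41 CPM in Klf4 libraries. The groups stood apart, with the lowest control and the lowest Klf4 value both in replicate 4. Dsc2 rose by 1.72 on the log2 scale (SE 0.11, adjusted p = 1.09e-11), with 1.60 in batch 1 and 1.85 in batch 2.

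Dsc3 (ENSMUSG00000059898; chromosome 18, 19960930 to 20002351, minus strand), the desmocollin of basal epidermal layers, held 0, 0, 2 and 4 counts in control and 411, 299, 441 and 403 counts in Klf4 libraries. In CPM the Klf4 group averaged 7.65 ± 0.758, close to the 9.02 ± 1.22 of Dsc2, while the control group averaged 0.0309 ± 0.0396. The ratio of summed CPM was 247.5 (95% interval 113.5 to 675.6) and the log2 fold change 7.84 (SE 0.26, adjusted p = 1.30e-16). It was 8.84 without control replicate 4, which held 4 of the 6 control counts, and 7.45 without control replicate 2.

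Dsc1 (ENSMUSG00000044322; chromosome 18, 20084184 to 20114871, minus strand), the desmocollin of the upper epidermal layers, stayed near the limit of detection. It held 9, 3, 6 and 6 counts in control and 29, 23, 17 and 6 counts in Klf4 libraries. Klf4 replicates 1 to 3 lay above all controls, but Klf4 replicate 4 held as few counts as controls 3 and 4. The ratio of summed CPM was 2.99 (95% interval 1.86 to 4.95). Fitted without a filter on low counts, its log2 fold change was 1.49 (SE 0.45, adjusted p = 0.00524). In the 5 fits that left out a library and kept Dsc1, the value ran from 1.11 without control replicate 2 (adjusted p = 0.0695) to 1.79 without Klf4 replicate 4.

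**Figure D2:**
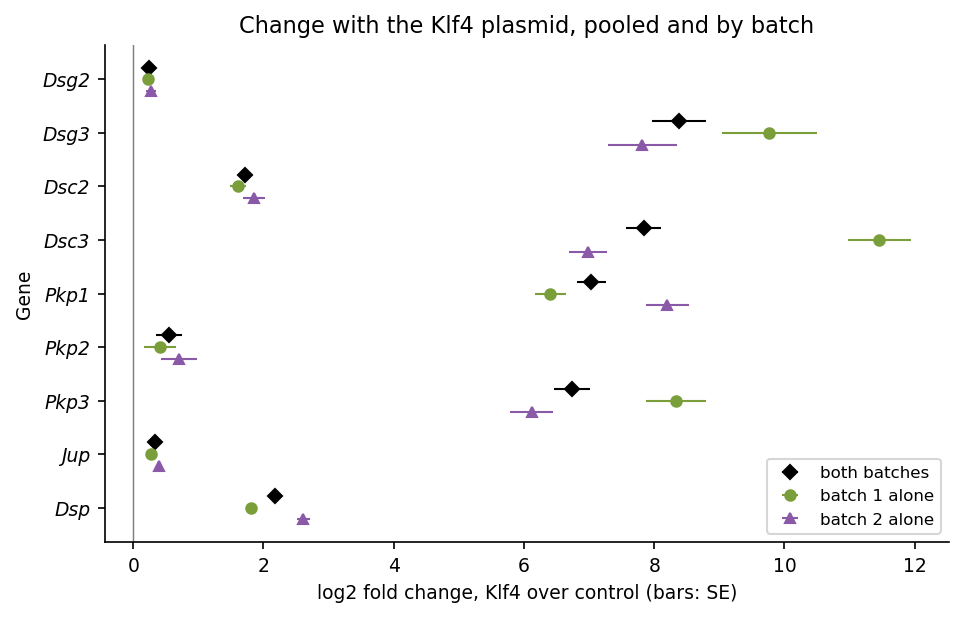
Log2 fold change (Klf4 over control, horizontal axis, bars SE) of the 9 tested desmosomal genes from all 8 libraries (black) and from batch 1 (green) and batch 2 (purple) alone. Dsg2, Pkp2 and Jup lie below 1, Dsc2 and Dsp near 2, and the 4 genes with few control counts between 6 and 12, where the batches spread most. Dsg3 and Dsc3 held 0 counts in every control library of batch 1, so their batch 1 values have no measured control level. The bars of these 4 genes do not show that limit.

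Of the plakophilins, armadillo-repeat proteins that strengthen the plaque, Pkp2 was the main form in control cells and Pkp1 in Klf4 cells. Pkp1 (ENSMUSG00000026413; chromosome 1, 135871395 to 135919207, minus strand), mutated in a skin fragility syndrome, held 7, 4, 3 and 0 counts in control and 554, 418, 464 and 555 counts in Klf4 libraries. Its mean rose from 0.0729 ± 0.0614 to 9.83 ± 0.939 CPM. The ratio of summed CPM was 135.9 (95% interval 80.8 to 249.1) and the log2 fold change 7.04 (SE 0.22, adjusted p = 4.44e-17), or 7.58 without control replicate 1 and 6.64 without control replicate 4.

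Pkp3 (ENSMUSG00000054065; chromosome 7, 141078218 to 141090510, plus strand), a plakophilin of most epithelia, held 1, 0, 4 and 3 counts in control and 228, 181, 245 and 293 counts in Klf4 libraries. Both groups were apart by more than an order of magnitude in every pair of libraries. The Klf4 mean was 4.66 ± 0.659 CPM, the ratio of summed CPM 113.1 (95% interval 57.2 to 262.8) and the log2 fold change 6.74 (SE 0.27, adjusted p = 4.17e-15). Leaving out single libraries moved it between 6.37 (without control replicate 2) and 7.21 (without control replicate 3).

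Pkp2 (ENSMUSG00000041957; chromosome 16, 16213318 to 16272712, plus strand), the plakophilin of heart and simple epithelia, was scarce and moved little. It gave 1.08, 1.89, 0.994 and 0.974 CPM in control and 1.99, 1.99, 1.29 and 1.90 CPM in Klf4 libraries. Control replicate 2 lay above Klf4 replicate 3 and just below the other Klf4 libraries, so the groups overlapped. The log2 fold change was 0.55 (SE 0.19, adjusted p = 0.0310), with 0.41 in batch 1 (adjusted p = 0.253) and 0.71 in batch 2 (adjusted p = 0.0524). The call was lost without the batch term (adjusted p = 0.145) and on leaving out control replicate 1 (0.40, adjusted p = 0.124), control replicate 3 (0.51, adjusted p = 0.0761), control replicate 4 (0.50, adjusted p = 0.066), Klf4 replicate 1 (0.57, adjusted p = 0.0583) or Klf4 replicate 4 (0.40, adjusted p = 0.149).

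Plakoglobin and desmoplakin join all cadherin and plakophilin isoforms to the filaments. Of the 5 members that are not cadherins, Jup and Dsp were matched in the RefSeq promoter table (GRCm38.p6), and the 250 bases before their starts are shown. Members of the Krüppel-like family are known to bind CACCC boxes and GC boxes, but binding of Klf4 to these windows was not tested. Capitals mark the motifs searched on both strands: the box CACCC with its reverse complement GGGTG, and the box CCGCCC with its reverse complement GGGCGG.
Jup, chr11:100397791-100398040, minus strand: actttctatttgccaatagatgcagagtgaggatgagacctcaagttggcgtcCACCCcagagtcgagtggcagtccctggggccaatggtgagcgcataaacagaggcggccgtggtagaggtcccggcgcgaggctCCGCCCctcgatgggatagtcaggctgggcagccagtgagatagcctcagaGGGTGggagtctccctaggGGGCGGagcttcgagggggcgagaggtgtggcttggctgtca
Dsp, chr13:38151044-38151293, plus strand: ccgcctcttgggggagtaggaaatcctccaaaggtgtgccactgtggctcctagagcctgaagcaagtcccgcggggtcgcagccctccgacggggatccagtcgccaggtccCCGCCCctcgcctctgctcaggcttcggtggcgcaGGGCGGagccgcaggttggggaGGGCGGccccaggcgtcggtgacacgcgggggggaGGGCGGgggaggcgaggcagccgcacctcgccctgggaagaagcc
The Jup window held 2 CACCC and 2 CCGCCC matches and overlapped no annotated exon. The Dsp window held 0 CACCC and 4 CCGCCC matches, and an exon of Gm10129 on the opposite strand reaches into it. Of 32817 promoter windows of that length 52.0% held CACCC and 32.7% held CCGCCC. Those shares were not matched for base content, and G and C made up 62.0% of the Jup window and 72.4% of the Dsp window. The longer box CCACACCC, which contains CACCC, was in neither and in 3.2% of all windows.

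Jup (ENSMUSG00000001552; chromosome 11, 100368958 to 100397763, minus strand), which desmosomes share with adherens junctions, was the most abundant of the 10 genes per length in both groups. It gave 225, 228.3, 235.3 and 226.2 CPM in control and 274.4, 276.9, 291.8 and 313.7 CPM in Klf4 libraries. All Klf4 libraries lay above all controls, and those of batch 2 were the highest. The rise was small but even: log2 fold change 0.34 (SE 0.03, adjusted p = 4.94e-09), with 0.28 in batch 1 and 0.40 in batch 2.

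Dsp (ENSMUSG00000054889; chromosome 13, 38151294 to 38198577, plus strand), the filament anchor, gave 6.80, 7.89, 4.06 and 4.18 CPM in control and 26.9, 24.9, 25.3 and 24.7 CPM in Klf4 libraries. The control libraries of batch 2 were lower than those of batch 1, while the Klf4 libraries reached nearly the same level in both. Dsp rose by 2.18 on the log2 scale (SE 0.10, adjusted p = 7.15e-14), by 1.81 in batch 1 and 2.61 in batch 2. The difference of 0.78 between the batches passed the test of the interaction (adjusted p = 0.00116 in edgeR, 0.000195 in DESeq2), as 0.766% of genes tested in edgeR and 0.910% of those in DESeq2 did, and Dsp was the only 1 of the 9 genes to pass. Gm10129 overlaps its start by 499 bases with at most 6 counts in a library.

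Batch alone also separated some members. In the same model, batch 2 libraries were lower by log2 differences of -0.46 in Dsg2 (adjusted p = 6.16e-07) and -0.37 in Dsc2 (adjusted p = 0.0127). Dsp also passed the test of the batch term, at -0.32 (adjusted p = 0.0240), but that value averages over groups that differed. Mean Dsp in batches 1 and 2 was 7.34 and 4.12 CPM in control libraries, but 25.9 and 25.01 CPM in Klf4 libraries. Of all tested genes 11.6% were lower in batch 2 by the same test. The other 6 tested genes did not pass the test of the batch term.

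Levels of different genes were compared as CPM per kb of exon. In control cells the order ran from Jup (35.5 CPM per kb) through Dsg2 (2.29), Dsp (0.593), Dsc2 (0.522) and Pkp2 (0.230) to Dsc1, Pkp1, Pkp3, Dsc3 and Dsg3, none of which averaged above 0.0247. The ranges of Dsp and Dsc2 overlapped, as did those of Dsc2 and Pkp2 and those of neighbours among the lowest genes. In Klf4 cells Jup (44.9) again led, and Dsg2 (2.70, range 2.21 to 3.24) and Dsp (2.64, range 2.56 to 2.78) were not apart. Pkp1 (1.96), Dsc2 (1.71), Dsc3 (1.42) and Pkp3 (1.29) followed with ranges that overlapped between neighbours. Dsg3 (0.366) and Pkp2 (0.334) overlapped too, and Dsc1 (0.0746) came last.

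The makeup of both isoform families differed between the groups, with a smaller share of Dsg2 and Pkp2 in Klf4 cells. The 5 cadherins summed to 2.84 ± 0.534 CPM per kb in control and 6.27 ± 0.607 in Klf4 libraries, a ratio of 2.21. Dsg2 made up 80.6 ± 2.34% of that sum in control and 42.9 ± 4.66% in Klf4 libraries, although its own level did not fall. Dsc2 went from 18.3 ± 2.52% to 27.2 ± 1.46%, Dsc3 from 0.242 ± 0.315% to 22.8 ± 3.62%, and Dsg3 from 0.0298 ± 0.0595% to 5.93 ± 1.37%. Dsc1 held 0.891 ± 0.351% and 1.15 ± 0.551%, with overlapping ranges.

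The 3 plakophilins summed to 0.256 ± 0.0767 CPM per kb in control and 3.58 ± 0.338 in Klf4 libraries, 13.96 times as much. Pkp2 accounted for 84.3 to 95.6% of the sum in the control libraries and for 7.34 to 11.2% in the Klf4 libraries. Pkp1 took 54.7 ± 2.11% and Pkp3 35.97 ± 3.39% of the sum in Klf4 libraries, and the order Pkp1, Pkp3, Pkp2 was the same in all 4. Among plakoglobin and desmoplakin, Dsp rose from 1.64 ± 0.553% to 5.56 ± 0.474% of their sum. These shares describe the same counts as the fits and carry no test of their own. They depend on the division by exon length: without it Dsg2 held 53.001 ± 4.86% of the cadherin sum in Klf4 libraries, more than Dsc2 (21.5 ± 1.32%) and Dsc3 (18.5 ± 3.19%) together in all 4, which was so in only 1 of them per kb.

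**Figure D3:**
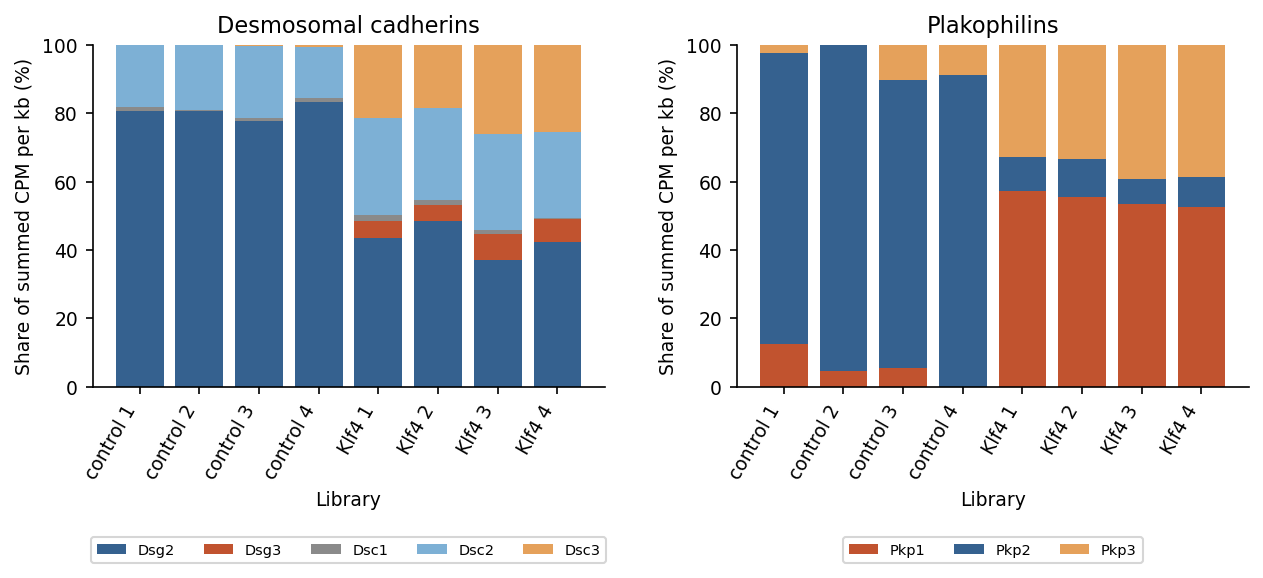
Share (%) of each gene in the summed CPM per kb of exon of its class, as stacked bars from 0 to 100 for each of the 8 libraries, with the 5 cadherins on the left and the 3 plakophilins on the right. Dsg2 and Pkp2 fill most of every control bar, while Dsc2 and Dsc3 together exceed Dsg2 in 3 of the 4 Klf4 bars and Pkp1 and Pkp3 together fill most of the plakophilin bars.

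The 5 cadherins lie in 1 cluster on chromosome 18, which allowed them to be set beside their neighbours in genome order. Between them lie 4 further desmogleins, and Dsg1b (ENSMUSG00000061928), a mouse copy of the pemphigus foliaceus antigen, had the highest Klf4 level per length of the whole cluster's cadherins. Its counts were 0, 4, 0 and 0 in control and 864, 673, 1082 and 1049 in Klf4 libraries, 18.01 ± 2.69 CPM in the latter. Its ratio of summed CPM was 876 (95% interval 342 to 3218) and its log2 fold change 9.60 (SE 0.22, adjusted p = 1.93e-19), or 12.85 without control replicate 2, which held all 4 control counts. Dsg1a held 1, 4, 2 and 1 counts in control and 79, 43, 71 and 82 in Klf4 libraries, a log2 fold change of 4.94 (SE 0.39, adjusted p = 6.71e-10). Dsg1b and Dsg1a passed the filter only through the Klf4 libraries and so had to differ.

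The further copy Dsg1c and the separate desmoglein Dsg4 did not pass the filter. Dsg1c held 0, 6, 6 and 8 counts in control and 0, 2, 1 and 3 in Klf4 libraries, the only cadherin of the cluster with fewer counts in the Klf4 group. Dsg4, a desmoglein of the hair follicle, held 0 counts in all control libraries, which allows up to 0.0155 CPM over that group, and 1, 3, 5 and 0 in Klf4 libraries. The Dsg1 copies share sequence: 48.9% of the 50-base words of Dsg1b, 35.02% of Dsg1a and 29.6% of Dsg1c occur in another gene's transcripts, so the split between them is uncertain. The same share was 0% in Dsc1, Dsc2, Dsc3 and the 3 plakophilins, 3.53% in Dsg2 and 0.116% in Dsg3.

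With all 9 cadherins of the cluster in the sum, a choice made after the data had been seen, the total went from 2.88 ± 0.530 to 11.07 ± 0.379 CPM per kb. Dsg1b then held 41.0 ± 5.59% of the Klf4 sum and Dsg2 24.5 ± 4.94%, with Dsc2 at 15.4 ± 2.03% and Dsc3 at 12.8%. In control libraries Dsg1b held 0.155%, Dsg2 79.5%, Dsc2 18.03 ± 2.50% and Dsc3 0.238%. The mean shares of Dsc2 and Dsc1 (0.880% in control, 0.674% in Klf4) were thus lower in Klf4 libraries, although higher among the 5 cadherins. The next genes beyond Dsg2 did not share the rise. Ttr (transthyretin, a thyroid hormone carrier of islets and liver) gave 577 ± 45.2 CPM in control and 570.2 ± 26.8 CPM in Klf4 libraries (log2 fold change -0.02, adjusted p = 0.740). B4galt6, a lactosylceramide synthase, fell by 0.12 on the log2 scale (SE 0.03, adjusted p = 0.00651), a call that was lost with scaling factors from highly expressed genes (-0.09, adjusted p = 0.0567). Within 200 kb of the cluster these 11 protein-coding genes were all that the annotation held.

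**Figure D4:**
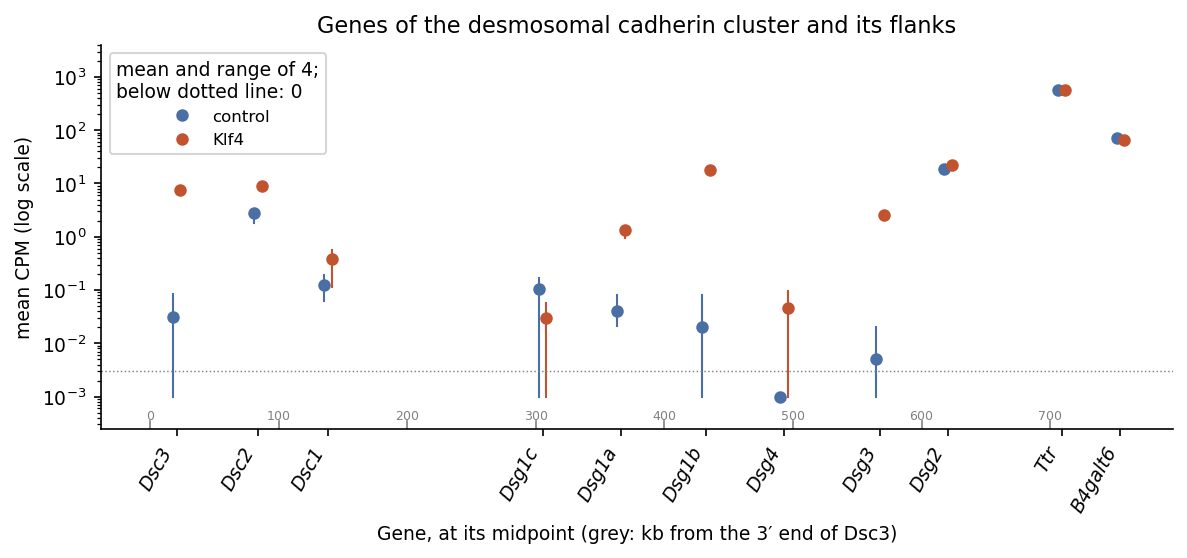
Mean CPM (log axis; points, with lines from the lowest to the highest of 4 libraries) of the 11 protein-coding genes of the cadherin cluster and its flanks, in genome order, for control (blue) and Klf4 (orange) libraries, with 0 set below the dotted line. Dsc3, Dsg1b and Dsg3 rise from about 0, Dsg1c does not rise, and Ttr and B4galt6 overlie or nearly overlie between groups.

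Partners of the desmosome were counted in 6 lists. Of the partners named, Krt5, Krt8, Ctnnb1, Ctnnd1, Nectin2, Itgb4, Plec, Ovol1, Grhl2, Adam17 and Klk14 overlap another annotated gene, so their counts are uncertain without a stated strand setting. Of 9 other desmosomal proteins 7 were tested, and 6 were higher and 0 lower, beside 21.1% and 15.5% of all tested genes. Since genes that passed the filter only through the Klf4 libraries had to differ, the medians that follow are over the genes that would have passed on control libraries alone, of which 18.1% in the whole table were higher with a median log2 fold change of -0.0269. Of the other desmosomal proteins 4 of 5 such genes were higher (median 1.48). Perp, a tetraspan protein needed for desmosome assembly, rose by 2.17 (SE 0.07, adjusted p = 3.29e-17), from 15.5 ± 0.491 to 70.4 ± 11.4 CPM. Cdsn, corneodesmosin of the cornified layer, rose by 3.24 (SE 0.09, adjusted p = 3.13e-18), from 2.19 ± 0.535 to 20.7 ± 3.11 CPM. The plakins Ppl and Evpl, which bind filaments as Dsp does, rose by 0.81 and 1.48, from 46.7 ± 13.9 to 80.5 ± 14.6 CPM and from 27.8 ± 6.32 to 76.7 ± 3.75 CPM. Pkp4, a p120-catenin relative, did not pass (0.04, adjusted p = 0.400). Ppl, Evpl and Pkp4 were singled out after their values had been seen, as were Krt8, Krt18, Cdh1, Ctnnb1 and Ctnnd2 in the lists that follow.

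Of 15 intermediate filament genes 10 were tested, and 8 were higher and 0 lower. Of the 5 that would have passed on control libraries alone 3 were higher, beside 18.1% of such genes (median 0.33), and Krt14, Krt16, Krt17, Krt19 and Vim passed the filter only through the Klf4 libraries. Krt14, the basal epidermal keratin, held 0, 0, 0 and 1 counts in control and 969, 766, 1528 and 1452 in Klf4 libraries. Krt16 and Krt17, keratins of stressed epidermis and hair follicle, held at most 2 counts in a control library and at least 748 and 515 in the Klf4 libraries. These keratins resemble each other, with 37.6% of the 50-base words of Krt16, 13.9% of Krt14 and 4.00% of Krt17 found in another gene, so their split is uncertain. Krt8, a simple-epithelial keratin and partner of Krt18, rose by 1.45 (SE 0.07, adjusted p = 3.00e-13), from 78.9 ± 14.999 to 213.1 ± 14.7 CPM, whereas Krt18 was listed at 0.811 ± 0.290 and 0.784 ± 0.0889 CPM (log2 fold change -0.03, adjusted p = 0.941). Vim, vimentin of mesenchymal cells, rose by 4.47 (SE 0.24, adjusted p = 8.51e-13) to 2.57 ± 0.398 CPM.

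Of 15 adherens junction genes 14 were tested, and 9 were higher and 1 lower, beside 21.1% and 15.5% of all tested genes, with a median of 0.161. All 14 would have passed on the control libraries alone. Nectin4 rose most, by 0.88 (SE 0.07, adjusted p = 1.62e-09), ahead of Nectin2 (0.42), Nectin1 (0.30) and Ctnnd1 (p120-catenin, 0.26). Cdh1, E-cadherin, rose by 0.21 (SE 0.03, adjusted p = 3.40e-06), a call lost without the batch term (adjusted p = 0.381). Ctnnb1, β-catenin and the closest relative of Jup, did not pass (0.05, adjusted p = 0.147), and it passed only with factors from highly expressed genes (adjusted p = 0.0107). The lower gene was Ctnnd2, a neural relative of p120-catenin, which fell by 0.16 (SE 0.03, adjusted p = 0.000433), a call also lost without the batch term (adjusted p = 0.0921).

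Of 9 hemidesmosome genes, which anchor cells to the basement membrane, 8 were tested and 7 were higher and 0 lower. Of the 6 that would have passed on control libraries alone 5 were higher, beside 18.1% of such genes (median 0.31). Itgb4, the β4 integrin, passed the filter only through the Klf4 libraries and so had to differ. It rose by 5.73 (SE 0.20, adjusted p = 1.94e-16) to 10.3 ± 1.19 CPM. Lamb3, a laminin chain, rose by 5.39 (SE 0.11, adjusted p = 2.02e-20), and Plec, plectin, by 1.10 (SE 0.06, adjusted p = 2.11e-12). The count of changed genes was 4 without the batch term, without control replicate 3 and without Klf4 replicate 1.

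Of 11 transcription factors linked to epithelial junction genes 10 were tested, and 8 were higher and 0 lower. Of the 8 that would have passed on control libraries alone 6 were higher, beside 18.1% of such genes (median 0.39). Ovol1, an epidermal zinc-finger factor, rose by 5.32 (SE 0.20, adjusted p = 1.56e-15) to 8.41 ± 1.41 CPM, the grainyhead factors Grhl3 and Grhl2 by 1.88 each, and Snai1, a repressor of E-cadherin, by 1.43. Of these, Ovol1 and Grhl2 passed the filter only through the Klf4 libraries and so had to differ. Trp63, the p63 gene of stratified epithelium, was at 0 counts in all 8 libraries. Of 6 genes for proteases that cut desmosomal cadherins and an inhibitor of such proteases, 3 were tested. Of these 1 was higher and 0 lower, beside 21.1% and 15.5% of all tested genes. Of the 2 that would have passed on control libraries alone 0 were higher, beside 18.1% of such genes. The higher gene, Klk14, a kallikrein that cuts Dsg1, passed the filter only through the Klf4 libraries. It was at 8.63 ± 1.48 CPM after 0.0356 ± 0.0480 CPM (log2 fold change 7.80, SE 0.26, adjusted p = 9.91e-17). Adam10 and Adam17, cadherin sheddases, were tested and not called.

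**Figure D5:**
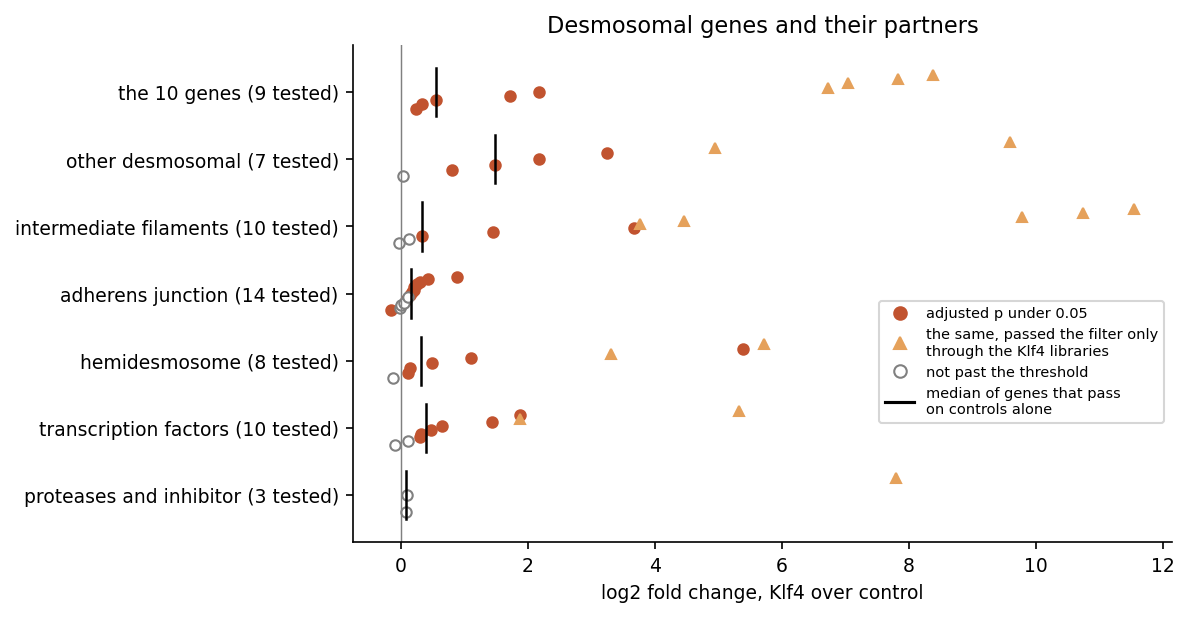
Log2 fold change (Klf4 over control, horizontal axis) of each tested gene, for the 10 desmosomal genes and 6 lists of partners, with filled circles for an adjusted p under 0.05, triangles for such genes that passed the filter only through the Klf4 libraries, open circles for genes not past the threshold, and black lines for the medians of genes that pass on control libraries alone. The medians lie at 0.55 for 5 of the desmosomal genes and 0.161 for the adherens junction, and the triangles reach the highest values.

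Markers of other cell types moved with these genes in part. The 6 keratinocyte markers summed to 3.82 to 4.24 CPM in control and 21.6 to 33.2 CPM in Klf4 libraries, a rise carried by Krt14. Ivl and Trp63 were at 0 in all libraries, Krt1 was at 0 in all controls and averaged 0.0286 CPM in Klf4 libraries, and Krt5, the partner of Krt14, averaged 0.0980 and 0.225 CPM. The 4 fibroblast markers summed to 2.61 to 3.82 and 20.99 to 27.4 CPM, with 3 of them (Dcn, Col1a1 and Pdgfra) higher, and the 3 ductal markers to 0.185 to 0.331 and 2.74 to 4.38 CPM, mostly Krt19. The sums of leukocyte (5.94 to 6.55 and 5.91 to 7.40 CPM), acinar (1.36 to 3.92 and 1.63 to 3.07 CPM) and α-cell markers (59.1 to 88.3 and 54.9 to 95.1 CPM) overlapped between groups, and δ-cell markers stayed at or below 0.209 CPM. Within these sums 1 of the 3 α-cell markers was called higher, and the acinar transcription factor gene Ptf1a, which overlaps an antisense gene and was not tested, held 1 count in all controls and 52 in all Klf4 libraries, more in each than in any control. Endothelial markers summed to 3.82 to 4.15 CPM in control and 4.49 to 4.95 CPM in Klf4 libraries. Cdh5 and Kdr were at 0 in all controls, and Cdh5, with 80 counts in the Klf4 libraries, was called higher (adjusted p = 2.43e-06). Of the markers called higher, all but Col1a1 passed the filter only through the Klf4 libraries and so had to differ. The part of other cell types in the desmosomal values was not tested.

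The genes most like each member were found by the root mean square difference of log2 CPM, centred on each gene's mean, over the 8 libraries among 12863 genes whose average log2 CPM reached 1. It was done for the 7 tested members at that level, which left out Dsg3 and Pkp2. Dsg2 was closest to Serpina1b, an α1-antitrypsin gene with close copies, so that its counts are uncertain (difference 0.0354), and Cdh1 (0.0437), which shared its lower level in batch 2. Jup was closest to the lysosomal channel gene Tpcn1 (0.0235) and the syndecan Sdc3 (0.0260), and Dsp to the epithelial sodium channel gene Scnn1a (0.0948) and to Crabp1 (0.158). Dsc2 was closest to Lrrc15 (0.117) and the ETS factor Elf4 (0.142). Matches were looser where controls held few counts: Pkp1 with Ptgs1, a cyclooxygenase (0.248), and Aqp1, a water channel (0.321), Pkp3 with Trarg1 (0.314) and Plcd1 (0.352), and Dsc3 with Asb2 (0.504) and Chrnd, an acetylcholine receptor subunit (0.514). Among the members themselves the closest pairs were Dsg2 with Jup (0.277), Dsg2 with Pkp2 (0.283) and Dsc2 with Dsp (0.320).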

How the data were processed

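Per the labels, polyadenylated RNA of 8 MIN6 samples was sequenced after library preparation by the Tecan Universal Plus mRNA-seq kit. The authors deposited whole-number read counts per gene, not normalised and not pooled. Per the submitters' processing notes, FastQC, STAR, featureCounts, edgeR and the mm10 build were used. Versions, annotation and strand setting are not given in the sources used here. The identifiers and symbols of all 55536 genes matched GENCODE M21 (GRCm38), the source of coordinates and exonic lengths.

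Counts were analysed with edgeR 4.0.16 under R 4.3.3: filterByExpr (minimum count 10), TMM scaling, a model with batch and plasmid, glmQLFTest and Benjamini-Hochberg adjustment over 18266 genes, with changes called at an adjusted p under 0.05. The batch term follows the design text of the series. The difference between batches was tested as an interaction in edgeR and DESeq2 1.42.0. Procedures were tested on simulated counts with far fewer changed genes than here and none of them near 0 counts. That test therefore does not cover genes with few control counts or widespread change. Intervals and the floor of 3 counts cover counting error only, since reads are not independent molecules. Each SE is the size of the log2 fold change divided by the square root of the F statistic of glmQLFTest. It understates the uncertainty where controls held few counts, as in Dsg3, Dsc3, Pkp1, Pkp3 and Dsg1b. Totals of 45417853 to 52731176 counts make 1 count about 0.02 CPM.

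The members and lists were chosen with earlier results of these data known. Named genes were Klf4, the 10 members, up to 4 changed genes of each list by size of change, the genes of the cadherin cluster, and the 2 genes of most similar profile to each member whose average log2 CPM reached 1. The result of 1 gene named by this rule is not reported here, and list counts include it. Alternatives were no batch term, a replicate block, DESeq2 size factors, DESeq2, limma-voom (limma 3.58.1), other filters, factors from genes whose average log2 CPM reached 6, and the omission of each library. Replicate numbers come from the sample titles. Deviations from group means of same-numbered libraries correlated with r = 0.459 to 0.614 over 10485 genes. Same-batch libraries of other numbers gave 0.459 to 0.574. These deviations still hold the batch effect, so the correlations cannot show that same numbers are pairs. Numbers were treated as pairs only in the replicate block, not in the main model. Counts of replicates differed beyond sampling noise (chi-square per degree of freedom 3.96 to 5.31 in the same batch, 15.8 to 21.1 across batches). Promoter sequences are RefSeq's. Figures were drawn with Python 3.11.15 and matplotlib 3.10.9.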

Additional observations from a re-analysis of the deposited data

Results flagged for a closer look

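In 11 of 110 checks of groups of 4 libraries, the gap from the highest or lowest library to its nearest neighbour exceeded Dixon's 95% critical value as a share of the range. Chance gives about 5.5 for normally distributed values of like libraries. These groups mix batches, and where the other libraries hold 0 counts any count fills the whole range. The 11 therefore cannot be read as an excess. Pkp2 stood at 1.89 CPM in control replicate 2, against 0.974 to 1.08 CPM in the other controls, and at 1.29 CPM in Klf4 replicate 3, against 1.90 to 1.99 CPM in the other Klf4 libraries. Both libraries pull the Pkp2 groups into overlap. Where the other controls held 0 counts, Dsg3 stood at 0.0203 CPM in control replicate 3, Dsg1b at 0.0822 CPM in control replicate 2, Krt14 at 0.0207 CPM in control replicate 4 and Krt16 at 0.0411 CPM in control replicate 2, that is 1 to 4 counts each. Trarg1 was at 0 CPM in control replicate 2 and at 0.0609 to 0.0637 CPM in the other controls. Ctnnd1 stood at 16.6 CPM in control replicate 2 (others 15.03 to 15.3 CPM) and at 17.5 CPM in Klf4 replicate 1 (others 18.9 to 19.1 CPM), and B4galt6 at 66.5 CPM in control replicate 1 (others 70.9 to 71.7 CPM). The total of Klf4 replicate 2, 45420000 counts after rounding, was below the 51890000 to 52730000 of the other Klf4 libraries.

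The plasmid effect was larger in batch 2 than in batch 1, by edgeR's test of the interaction, in Dsp (log2 difference 0.783, adjusted p = 0.00116), Evpl (0.454, adjusted p = 0.00107), Krt8 (0.609, adjusted p = 1.08e-06), Perp (0.425, adjusted p = 0.0245) and Plec (0.505, adjusted p = 3.87e-06). Klf4 itself also differed (0.371, adjusted p = 0.00570), a call that DESeq2 did not make (adjusted p = 0.313). In both batches each of these genes was higher in Klf4 libraries.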

How the results depend on the processing

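Of 144 values of tested members over 16 alternatives, 137 kept their direction and side of the threshold, 7 lost the call (6 of Pkp2 and 1 of Dsg2, given with those genes) and 0 reversed. The count of called members was 9, but 7 without the batch term, 8 without Klf4 replicate 1 and 10 without a filter; on leaving out a library, Dsc1 entered it in some fits in which Pkp2 was lost. The replicate block, with 9 members and 6284 genes called, changed no call of a member. Genes changed fell from 6684 to 4116 without the batch term, and genes lower from 2828 to 1159, or to 1638 with factors from highly expressed genes, which moved the share of calls that were higher from 57.7% to 72.8%. Leaving out a library gave 5889 to 7074 changed genes. Hemidesmosome genes changed numbered 4 without the batch term and 4 to 7 on leaving out a library. Changed proteases numbered 3 without a filter, 2 with a filter at 1 CPM, 3 with factors from highly expressed genes and 1 to 3 on leaving out a library. The log2 fold change of Ttr turned to 0.020 with those factors and ran from -0.048 to 0.0067 (without Klf4 replicate 2) on leaving out a library. That of Krt18 turned to 0.014 with limma-voom and 0.00086 with those factors, and ran from -0.22 to 0.15 on leaving out a library. Neither gene was called in any of these. The cause was not tested. Values of Dsg3, Dsc3, Pkp1 and Pkp3 are limited by the few control counts.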
